A study of Mus musculus with 2 samples.

Results

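The genes described here are 50 factors of DNA replication, from the origin recognition complex to the replication fork, the supply of deoxynucleotides and the switch into S phase. They were taken by name from a deposited table of 52636 genes, in which each name matched 1 row. Their mRNA was counted in 2 stable lines of Hepa1-6, a hepatocellular carcinoma cell line from a C57bl/6 mouse, grown in the same medium. The IRF8-OE line carried a lentivirus for overexpression of the transcription factor IRF8, with GFP and puromycin resistance, and the Vector line carried the control lentivirus with GFP and puromycin resistance alone. Both lines were exposed to virus for 24 h and selected with 2 µg/ml puromycin, so both had been infected and selected. The labels name neither the promoter of the transgene nor whether a line was a single clone or a pool. Each line had 1 library, with 20042660 counted reads for IRF8-OE and 18118017 for Vector. With no replicates there is no p-value for any difference below. Each interval states how precisely the reads of these 2 libraries were counted, which treats reads as independent although PCR copies are not, and leaves out variation between cultures.

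DNA replication begins in G1, when the origin recognition complex (ORC), Cdc6 and Cdt1 load the MCM2-7 helicase onto DNA as an inactive ring. In S phase the ring is activated by Cdc45 and the GINS complex, and DNA polymerases, the sliding clamp PCNA and its loader RFC, and the single-strand binding protein RPA copy both strands. Transcription of most of these genes is raised late in G1 by the E2F factors once the retinoblastoma protein is phosphorylated by cyclin-dependent kinases. In the adult liver most hepatocytes rest outside the cycle, whereas a hepatoma line in culture divides continuously. In bulk RNA a smaller share of cells in S phase and less mRNA in each such cell cannot be told apart.

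Levels are given as CPM, the count over the TMM-adjusted library size in megareads, and a ratio is the IRF8-OE CPM over the Vector CPM with its exact 95% counting interval. A gene counts as measured if its level averages 1 CPM or more over both libraries, which held for 12468 genes of the table and for all 50 replication genes. The size rule calls a difference where the ratio reaches 2, or 0.5 in the other direction, with an interval that excludes 1. Irf8 itself had 71.1 CPM in the IRF8-OE line and 58.2 CPM in the Vector line, a ratio of 1.22 (1.13 to 1.32), which was not called. Whether a transgene adds to the counts of this gene cannot be seen in the table. The hepatoma markers Alb and Afp were counted in both lines, at 75.1 and 127 CPM in IRF8-OE and 200.1 and 272 CPM in Vector, while Ttr, a plasma protein gene of mature hepatocytes, had 0 and 2 counts. Of the 8 hepatocyte and hepatoma markers listed, 5 were measured and 4 of these were called lower, with a summed level of 427 CPM in IRF8-OE and 905 CPM in Vector. Of 5 endothelial and stellate markers, 3 were measured, 2 called higher and 1 lower, with a summed level of 12.6 and 7.49 CPM. The part of these shifts in the values below was not tested. Of 7 myeloid markers 3 were measured, Csf1r at 8.89 CPM in IRF8-OE and 9.27 CPM in Vector, Cd68 at 7.65 and 11.2 CPM and Lyz2 at 2.73 and 2.36 CPM, and none was called. Adgre1, also of that list, and the T-cell marker Cd3e had 0 counts in both libraries. Of 3 fibroblast markers, 2 were measured and neither was called. Dcn had 904 CPM in IRF8-OE and 800.0 CPM in Vector, and Pdgfra had a log2 ratio of -0.43 with an interval below 1. Col1a2 from the same list had 1 and 0 counts.

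With 1 replication gene past the size rule, the count was too small to set the share of the 50 genes apart from that of other genes. By the size rule 1 of the 50 was higher, against 4.27% of all measured genes, and 0 were lower, against 3.64%. In either direction the share was 2.0%, beside 7.91% of all measured genes and 4.44% of the 9730 measured genes in the same range of levels. At 1.5-fold, Pole2 and Ccne2 were higher (4.0%, beside 10.4%) and E2f2 was lower (2.0%, beside 9.42%). The one called gene was Pole2, which encodes the second subunit of DNA polymerase epsilon. Of the 50 genes, 35 lay within 1.25-fold of an equal level, a share of 70.0% beside 55.8% of all measured genes, or 61.1% of those in the same range of levels. Within 1.5-fold lay 47 genes, or 94.0% beside 78.5%, and 29 genes had a ratio above 1, or 58.0% beside 50.9%. The summed level of the 50 genes was 5396 CPM in IRF8-OE and 5392 CPM in Vector, a ratio of 1.00 (0.992 to 1.01). The median log2 ratio was 0.08, beside 0.01 for all measured genes. With no threshold on fold, the interval lay above 1 for 19 genes, or 38.0% beside 31.1% of all measured genes, and below 1 for 14 genes, or 28.0% beside 32.7%. In the same range of levels the shares of measured genes were 32.4% above and 36.0% below 1. The other 17 replication genes had an interval that included 1 (34.0%, beside 36.2%). The replication genes had between 63 and 8937 reads in a library, and the least counted, Pole2 and E2f2, had the widest intervals. How far the differences exceed the variation between cultures was not measured, since there was 1 culture of each line.

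**Figure D1:**
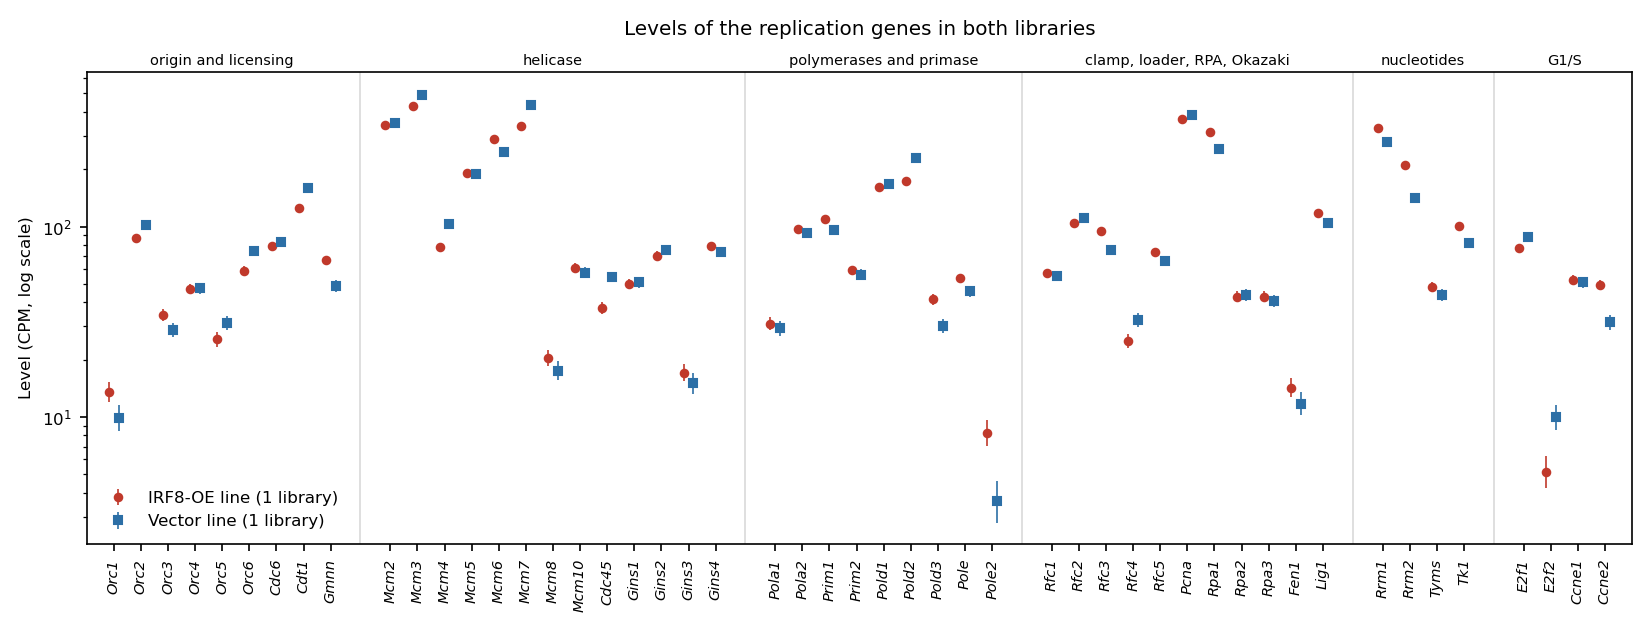
Level of each replication gene (CPM, log scale) in the IRF8-OE library (circles) and the Vector library (squares), grouped by role, with exact Poisson 95% intervals that cover counting error only. The paired points lie close together for most genes; Pole2 and E2f2, the 2 genes with the lowest levels, stand farthest apart.

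Words bound by E2F factors are shown here because they occurred in a larger share of these promoters than of all promoters, though in fewer than 50% of the genes with a promoter. The RefSeq table of promoters (build GRCm38.p6, 250 bases before to 50 bases after each start) held 41 of the 50 genes, with 50 promoters. An E2F word was defined as TTTGGCGC, TTTCCCGC, TTTGGCGG or TTTCCCGG on either strand. It occurred in at least 1 promoter of 19 of the 41 genes (46.3%), beside 7.12% of 8722 measured protein-coding genes and 3.32% of all 32851 promoters. The words TTTGGCGC and TTTCCCGC each occurred in 8 genes and TTTGGCGG in 5, whereas TTTCCCGG, the most frequent of the 4 in all promoters, occurred in 0. Of the 22 words found, 16 began within 50 bases of the annotated start. The starts are those of RefSeq and can differ from the deposited gene spans: that of E2f2 lies before its span and that of Mcm7 within it. A match to these letters does not show that a factor binds there.

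Promoters of a pair of helicase genes show how the words sit. The first 250 bases before the start of Mcm6 (chr1:128359706-128359955, minus strand) hold 2 E2F words and 2 inverted CCAAT boxes, the sequence bound by NF-Y. Those of Mcm7 (chr5:138171884-138172133, minus strand) hold 1 inverted E2F word next to TTCGAA, a word of cell cycle-dependent promoters, and 2 inverted CCAAT boxes. Capitals mark these words, both runs read 5′ to 3′ on the gene's strand, and no word overlaps another.
Mcm6: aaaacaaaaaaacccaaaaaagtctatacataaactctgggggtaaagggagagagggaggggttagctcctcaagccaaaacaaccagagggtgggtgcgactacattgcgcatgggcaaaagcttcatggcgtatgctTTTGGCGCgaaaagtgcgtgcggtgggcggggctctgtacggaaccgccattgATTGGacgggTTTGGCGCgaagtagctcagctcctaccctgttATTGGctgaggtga
Mcm7: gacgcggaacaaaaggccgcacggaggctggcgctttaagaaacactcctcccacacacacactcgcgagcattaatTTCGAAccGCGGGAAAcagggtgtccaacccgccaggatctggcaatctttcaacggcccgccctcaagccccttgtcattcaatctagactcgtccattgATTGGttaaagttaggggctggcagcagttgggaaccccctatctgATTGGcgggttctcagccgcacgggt

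Windows of 30 bases around the word are given for a selection of the genes with an E2F word, from licensing to the fork and the cell cycle. The E2F word is in capitals, and the gene's strand is read 5′ to 3′. A word printed as GCGCCAAA or GCGGGAAA is the inverted form. The E2F2 gene, itself a member of the factor family, holds 2 words after its RefSeq start, both of them before the span counted in the deposited table. Both lie in the window shown, with the second in capitals and the first, tttggcgg, in lower case.
Cdt1, chr8:122568035-122568064, plus strand: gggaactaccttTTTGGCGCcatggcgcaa
Cdc6, chr11:98908002-98908031, plus strand: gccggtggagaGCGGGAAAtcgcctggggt
Orc3, chr4:34614965-34614994, minus strand: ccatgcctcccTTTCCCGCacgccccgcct
Mcm3, chr1:20820263-20820292, minus strand: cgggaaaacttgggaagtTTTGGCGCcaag
Mcm5, chr8:75109349-75109378, plus strand: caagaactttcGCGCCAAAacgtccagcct
Gins3, chr8:95633507-95633536, plus strand: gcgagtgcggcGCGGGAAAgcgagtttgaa
Pold3, chr7:100121467-100121496, minus strand: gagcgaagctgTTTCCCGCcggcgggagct
Pole2, chr12:69228162-69228191, minus strand: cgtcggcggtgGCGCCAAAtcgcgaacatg
Rfc3, chr5:151651190-151651219, minus strand: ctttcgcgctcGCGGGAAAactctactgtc
E2f2, chr4:136172294-136172323, plus strand: cgaatttggcggcatatagTTTGGCGCtaa

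The 19 genes with an E2F word had a median log2 ratio of 0.08, and the 22 genes whose promoters held none had 0.04. Pole2 and E2f2, with the highest and the lowest ratio of the whole set, are both among the 19. Pole2 carries a word at bases 11 to 18 after the RefSeq start and E2f2 at bases 25 to 32 and 40 to 47. Both were also the least counted genes, and a link between word and ratio was not tested. Of the 19 genes with a word, 8 had an interval above 1 and 4 below 1. Of the 22 genes without one, 8 lay above and 8 below. Over all measured genes the shares were 31.1% above and 32.7% below 1. CCAAT occurred in 25 of the 41 genes (61.0%), beside 43.6% of measured protein-coding genes. The E-box CACGTG, bound by Myc, occurred in 8 genes (19.5%, beside 12.1%), and the words TTTGAA or TTCGAA in 8 (19.5%, beside 16.5%). A core of the interferon-stimulated element, a pair of GAAA words 2 bases apart on either strand, was found in Orc2 and Pold2 alone (4.88%, beside 3.61%). Pold2 had a ratio of 0.757 and Orc2 of 0.857, and both intervals lay below 1. An interval below 1 was found for 14 of the 50 replication genes (28.0%), beside 32.7% of all measured genes. Whether this core bears on either ratio was not tested.

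Origin recognition and licensing genes lay on both sides of an equal level. Of the 9 genes, 3 had an interval above 1 and 4 below 1, beside 31.1% and 32.7% of all measured genes. The median log2 ratio was -0.07, which became 0.06 when libraries were scaled by total counts. Gmnn encodes geminin, which binds Cdt1 and blocks relicensing after S phase has begun. It had 1390 counts in IRF8-OE and 846 in Vector, or 66.5 and 48.7 CPM, a ratio of 1.36 (1.25 to 1.49). Cdt1, the loader that geminin inhibits, had 2630 and 2767 counts, or 126 CPM in IRF8-OE and 159 CPM in Vector, a ratio of 0.789 (0.748 to 0.833). The interval of the inhibitor thus lay above 1 and that of its target below 1, each ratio within 1.5-fold. Their ratios differed by a factor of 1.73 (1.56 to 1.91), a quantity that does not depend on how the libraries are scaled. Relative to chromosomal neighbours the ratios were nearer to each other, at 1.30 for Gmnn and 0.921 for Cdt1. Per deposited gene length, Gmnn stood above Cdt1 in IRF8-OE, at 130 and 115 TPM, and below it in Vector, at 86.7 and 132 TPM. By the length of the principal transcript they were nearly equal in IRF8-OE, at 170 and 165 TPM. In Vector they then had 113 and 190 TPM. Cdc6, the ATPase that works with Cdt1, had 79.1 CPM in IRF8-OE and 82.8 CPM in Vector, a ratio of 0.956 (0.890 to 1.03) that passed 1 under scaling by total counts and against its chromosomal neighbours.

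Within ORC, the large ATPase subunit gene Orc1 was the least abundant and had the highest ratio. Orc1 had 284 counts in IRF8-OE and 172 in Vector, or 13.6 and 9.91 CPM, a ratio of 1.37 (1.13 to 1.67). Orc6, the smallest subunit, had 58.5 CPM in IRF8-OE and 74.1 CPM in Vector, a ratio of 0.790 (0.730 to 0.855). The factor between these 2 ratios was 1.74 (1.41 to 2.14). Orc2 had 87.1 CPM in IRF8-OE and 102 CPM in Vector, a ratio of 0.857 (0.802 to 0.915). The core subunits Orc3, Orc4 and Orc5 had ratios of 1.20, 0.991 and 0.823, and the interval of Orc4 included 1. Of the exon bases of Orc2, 29.8% lie under exons of Nif3l1 on the opposite strand, so part of its counts cannot be assigned with certainty.

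MCM2-7 genes, which encode the 6 subunits of the ring, did not share a direction. All but Mcm4 were among the 9 most abundant of the set by mean CPM. Of the 6 genes, 1 had an interval above 1, 3 below 1 and 2 that included 1, beside 31.1%, 32.7% and 36.2% of all measured genes. The summed level was 1663 CPM in IRF8-OE and 1810 CPM in Vector, a ratio of 0.919 (0.905 to 0.933). Mcm6 had 6028 counts in IRF8-OE and 4290 in Vector, or 288 and 247 CPM, a ratio of 1.17 (1.12 to 1.21). Mcm2 and Mcm5 were close to equal, with 342 and 191 CPM in IRF8-OE and 350.4 and 189 CPM in Vector. Their ratios were 0.976 (0.943 to 1.01) and 1.01 (0.966 to 1.06), and that of Mcm2 passed 1 when the expression trend was removed or total counts set the scale. Mcm3 had 427 CPM in IRF8-OE and 489 CPM in Vector, a ratio of 0.874 (0.849 to 0.901).

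Mcm7 and Mcm4 were the 2 lowest of the ring. Mcm7 had 7039 counts in IRF8-OE and 7501 in Vector, or 337 and 432 CPM, a ratio of 0.779 (0.754 to 0.805). Mcm4 had 1634 and 1799 counts, or 78.1 CPM in IRF8-OE and 104 CPM in Vector, a ratio of 0.754 (0.705 to 0.807). The ratio of Mcm6, the highest of the ring, exceeded that of Mcm4, the lowest, by a factor of 1.55 (1.43 to 1.67). Mcm4 lies on chromosome 16, and relative to chromosomal neighbours the ratios were 1.155 for Mcm6 and 0.940 for Mcm4. For Mcm7, 46.8% of the 32-base words of its longest transcript occur at another annotated locus, so its counts are uncertain. Mcm10, which joins the helicase as it is activated, and Mcm8, which acts in recombination repair, had ratios of 1.06 (0.977 to 1.16) and 1.17 (1.00 to 1.36).

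Among the activators of the helicase, Cdc45 had the lowest ratio. Cdc45 had 783 counts in IRF8-OE and 943 in Vector, or 37.4 and 54.3 CPM, a ratio of 0.690 (0.626 to 0.759), the second lowest of the 50. It lies on chromosome 16, and relative to its chromosomal neighbours the ratio was 0.887. Gins1, Gins2, Gins3 and Gins4 had ratios between 0.932 and 1.14, and all 4 intervals included 1. Gins4 had 78.9 CPM in IRF8-OE and 73.8 CPM in Vector, and Gins3, the least abundant of the complex, had 17.1 and 15.0 CPM. Of the exon bases of Gins2, 67.3% overlap exons of Gse1 on the opposite strand, and reads there may be split or lost. Over the 13 helicase genes the median log2 ratio was -0.03, which became 0.10 once the expression trend was removed and 0.095 where total counts set the scale.

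DNA polymerase genes held the one gene past the size rule. Pole2 (mm10 chromosome 12, 69201773 to 69228195, minus strand) encodes the non-catalytic subunit that holds polymerase epsilon to the helicase. It had 173 counts in IRF8-OE and 63 in Vector, or 8.27 CPM (7.09 to 9.60) in IRF8-OE and 3.63 CPM (2.79 to 4.64) in Vector. Its ratio of 2.28 had an interval of 1.70 to 3.09, which reached below the 2-fold threshold although it excluded 1. Pole2 was also the least abundant of the 50 genes on average, and 12.8% of its transcript words occur at another annotated locus, most often in the overlapping gene Gm49384, which had 0 counts. Pole, the catalytic subunit, had 1116 counts in IRF8-OE and 793 in Vector, or 53.4 and 45.7 CPM, a ratio of 1.17 (1.07 to 1.28). The factor between Pole2 and Pole was 1.95 (1.43 to 2.68). The subunits Pole3 and Pole4, which are outside the set, had ratios of 0.994 and 1.10. Per length, Pole exceeded Pole2 by 1.67-fold in IRF8-OE and 3.25-fold in Vector.

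Polymerase delta, which copies the lagging strand, had subunits on both sides of an equal level. Pold3, an accessory subunit that binds PCNA, had 870 counts in IRF8-OE and 523 in Vector, or 41.6 and 30.1 CPM, a ratio of 1.38 (1.24 to 1.54). Pold2, the subunit that bridges it to the catalytic chain, had 3636 and 3991 counts, or 174 CPM in IRF8-OE and 230 CPM in Vector, a ratio of 0.757 (0.723 to 0.791). The factor between them was 1.83 (1.62 to 2.06). Pold1, the catalytic subunit, had a ratio of 0.964 (0.916 to 1.01). Pold4, a subunit outside the set, had a ratio of 0.766 (0.670 to 0.875). In polymerase alpha-primase, which starts each new strand, all 4 subunits lay close together. Prim1, Pola2, Pola1 and Prim2 had ratios of 1.14, 1.06, 1.06 and 1.05, and the factor between the highest and the lowest was 1.08 (0.974 to 1.21), an interval that included 1. These intervals do not allow for the choice of the highest and the lowest subunit of a complex, which widens the factor.

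**Figure D2:**
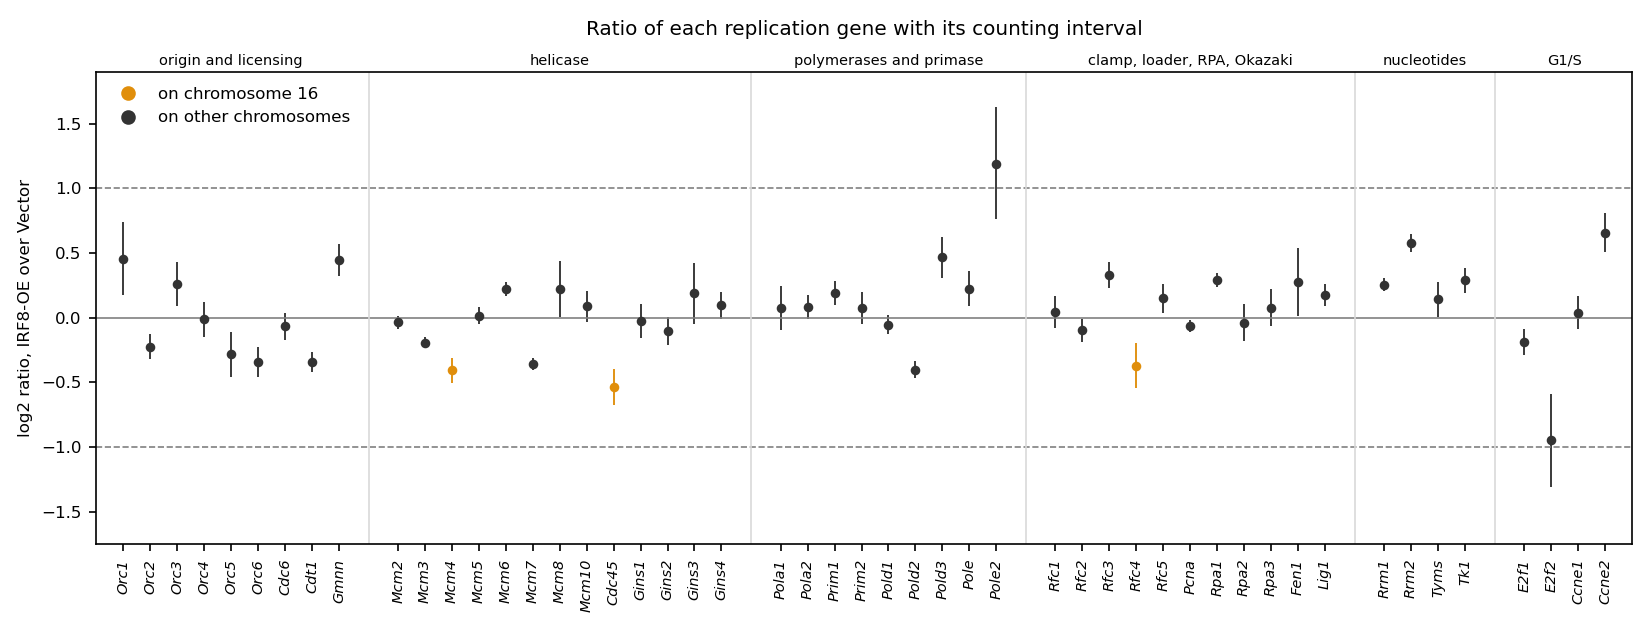
Log2 ratio of each replication gene, IRF8-OE over Vector, with its exact 95% counting interval. Dashed lines mark 2-fold, orange points mark genes on chromosome 16, and Pole2 is the one point beyond a dashed line; E2f2 lies just inside the lower one at -0.95.

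Clamp, clamp loader and RPA genes were close to equal on median (log2 ratio 0.08). Of their 11 intervals, 5 lay above 1 and 3 below 1, beside 31.1% and 32.7% of all measured genes. Pcna, which encodes the sliding clamp, had 7702 counts in IRF8-OE and 6680 in Vector, or 368 and 385 CPM, a ratio of 0.958 (0.927 to 0.989) that passed 1 without the expression trend, without the length trend and with total counts as the scale. Of its transcript words 37.5% occur elsewhere, most often in Pcna-ps2, a copy on chromosome 19. Pcna-ps2 had 178 counts in IRF8-OE and 53 in Vector, a ratio of 2.79 (2.04 to 3.87), on a level of 8.51 and 3.05 CPM. Reads that fit both loci could have been counted at either or at neither, so neither ratio is certain.

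In the clamp loader, Rfc3 and Rfc4 lay at opposite ends. Rfc3 had 1971 counts in IRF8-OE and 1303 in Vector, or 94.3 and 75.03 CPM, a ratio of 1.26 (1.17 to 1.35). Rfc4 had 25.1 CPM in IRF8-OE and 32.4 CPM in Vector, a ratio of 0.774 (0.686 to 0.874), and 1.04 relative to its chromosomal neighbours. Both encode small ATPase subunits of the same 5-part loader, and their ratios differed by a factor of 1.62 (1.41 to 1.87). Rfc1, Rfc2 and Rfc5 had ratios of 1.03, 0.936 and 1.11. Of the exon bases of Rfc4, 12.65% overlap exons of Eif4a2 on the opposite strand, and Eif4a2 had 2343 counts in IRF8-OE and 2185 in Vector. Of the transcript words of Rfc2, 22.7% occur at another annotated locus. Rpa1, the large subunit of the single-strand binding protein, had 313 CPM in IRF8-OE and 256 CPM in Vector, a ratio of 1.22 (1.18 to 1.27). Its partners Rpa2 and Rpa3 had ratios of 0.974 and 1.06, with intervals that included 1.

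Fen1 and Lig1 complete the lagging strand by trimming and joining its fragments. Lig1 had 118 CPM in IRF8-OE and 104 CPM in Vector, a ratio of 1.13 (1.06 to 1.20). Fen1 had 298 counts in IRF8-OE and 204 in Vector, or 14.3 and 11.7 CPM, a ratio of 1.21 (1.01 to 1.46). Of the exon bases of Fen1, 78.8% overlap exons of Gm10143 on the opposite strand, which itself had 22 and 17 counts. How overlapped reads were treated is not stated in the labels, so the low level of Fen1 cannot be read as low expression.

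Nucleotide supply, with 4 genes, was the one role in which all had an interval above 1, beside 31.1% of all measured genes. The summed level of the 4 genes was 689 CPM in IRF8-OE and 543 CPM in Vector, a ratio of 1.27 (1.24 to 1.30), and the median log2 ratio was 0.27. Rrm2, the cell cycle-regulated subunit of ribonucleotide reductase, had 4402 counts in IRF8-OE and 2450 in Vector, or 210.5 and 141 CPM, a ratio of 1.49 (1.42 to 1.57). Rrm1, the large subunit, had 330.0 CPM in IRF8-OE and 276 CPM in Vector, a ratio of 1.20 (1.15 to 1.24). The ratio of Rrm2 exceeded that of Rrm1 by a factor of 1.25 (1.17 to 1.33). Tk1, the salvage kinase for thymidine, had 101 CPM in IRF8-OE and 82.4 CPM in Vector, a ratio of 1.22 (1.14 to 1.31). Tyms, which makes thymidylate from deoxyuridylate, had 48.1 and 43.6 CPM, a ratio of 1.10 whose interval began at 1.00. None of the 4 reached 2-fold. Of the transcript words of Rrm2 and Tyms, 15.7% and 16.9% occur at other annotated loci.

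Within each pair of G1/S paralogs, the ratios differed in size. E2f2 (mm10 chromosome 4, 136172394 to 136196057, plus strand), an activator of S-phase transcription, had 108 counts in IRF8-OE and 173 in Vector, or 5.17 CPM (4.24 to 6.24) in IRF8-OE and 9.96 CPM (8.53 to 11.6) in Vector. Its ratio was 0.518 (0.404 to 0.663), just short of the size rule, and 0.467, past it, with the expression trend removed. E2f1, its paralog, had 77.0 CPM in IRF8-OE and 87.6 CPM in Vector, a ratio of 0.880 (0.820 to 0.944). Ccne2, one of the 2 E-type cyclins that activate CDK2, had 1034 counts in IRF8-OE and 545 in Vector, or 49.4 and 31.4 CPM, a ratio of 1.58 (1.42 to 1.75). Ccne1, the other, had 52.4 and 51.0 CPM, a ratio of 1.03 (0.939 to 1.12). After Pole2, Ccne2 and Rrm2 had the highest ratios of the 50 genes. Of the exon bases of Ccne2, 17.4% overlap exons of Ints8 on the opposite strand, and Ints8 had 1736 counts in IRF8-OE and 1136 in Vector.

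Per length, the subunits in the set had the same order within a complex in both lines for MCM2-7, GINS and the polymerases, by the deposited length. TPM values were computed from the deposited gene length, and again with the length of the principal transcript. By either length Mcm3 was the highest and Mcm4 the lowest of the ring in both lines, at 328 and 62.6 TPM in IRF8-OE and 340 and 75.3 TPM in Vector by the deposited length. Orc6 was the highest and Orc1 the lowest of ORC, at 68.1 and 11.2 TPM in IRF8-OE and 78.2 and 7.42 TPM in Vector. The GINS order was Gins4, Gins1, Gins2 and Gins3, and the polymerase delta order was Pold2, Pold1 and Pold3, in both lines and by both lengths. E2f1 exceeded E2f2 by 23.1-fold in IRF8-OE and 13.6-fold in Vector. Other orders depended on the length. With the deposited length Rrm2 exceeded Rrm1 by 2.54-fold in IRF8-OE and 2.03-fold in Vector. With the principal transcript Rrm2 exceeded Rrm1 by 1.16-fold in IRF8-OE, and Rrm1 exceeded Rrm2 by 1.07-fold in Vector. Counting error does not cover this, since the deposited length sums exons that not every transcript contains.

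**Figure D3:**
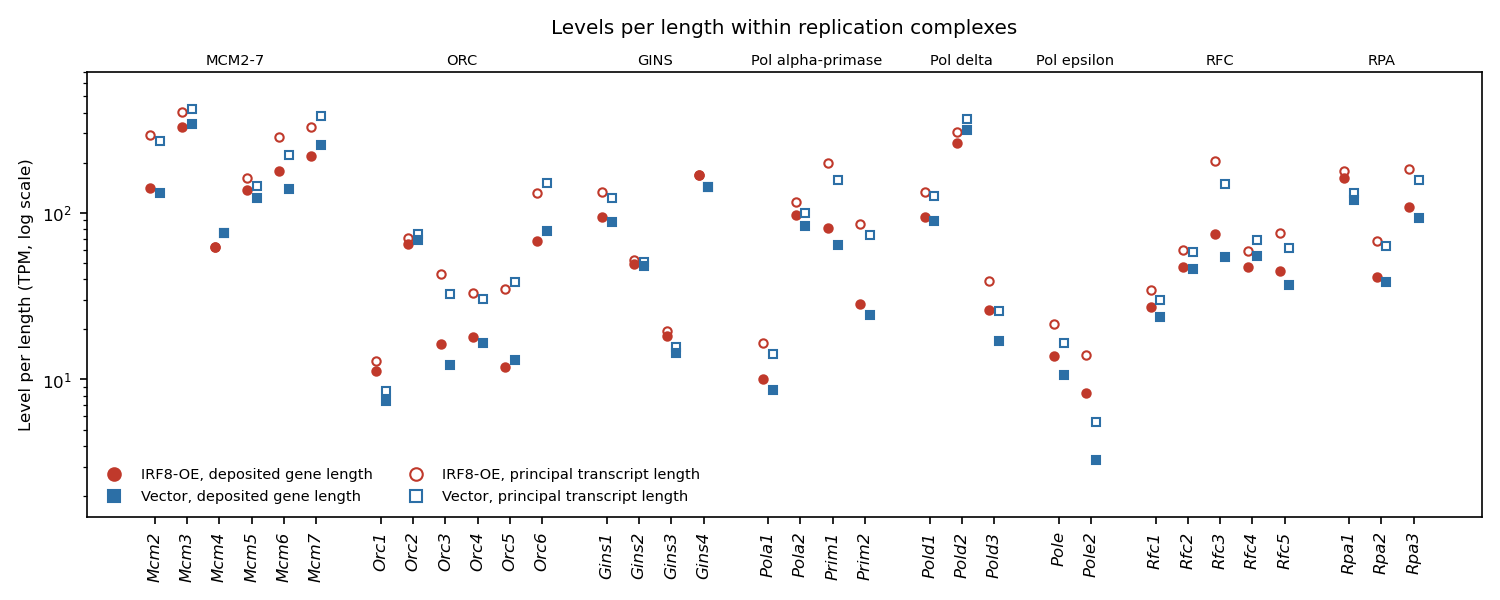
Level per length (TPM, log scale) of the subunits of 8 replication complexes in the IRF8-OE library (circles) and the Vector library (squares), by deposited gene length (filled) and by principal transcript length (open). Mcm4, Orc1, Gins3 and Pold3 are the lowest of the plotted subunits of their complexes in both libraries by either length.

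The replication genes of chromosome 16 had low ratios, as did their neighbours. Mcm4, Cdc45 and Rfc4 were 3 of the 5 lowest ratios of the set, and they are the 3 replication genes on chromosome 16. The 348 measured protein-coding genes of that chromosome had a median log2 ratio of -0.35, the lowest of 20 chromosomes. The 3 genes stood at -0.41, -0.54 and -0.37. The intervals of Mcm4 and Rfc4 included the chromosome median, and that of Cdc45 (-0.675 to -0.398) lay below it. The median of the measured protein-coding genes within 5 Mb of each, the gene itself left out, was -0.32 for Mcm4 (82 genes), -0.36 for Cdc45 (89 genes) and -0.42 for Rfc4 (54 genes). Relative to these neighbours the log2 ratios were -0.09, -0.17 and 0.05. The part of the chromosome in these values was not tested. Without the 3 genes the set had a median log2 ratio of 0.08 and an interval below 1 for 11 of 47, beside 32.7% of all measured genes.

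Across all 50 genes, the log2 ratio and the median of the neighbours had a Pearson r of 0.49 and a Spearman rho of 0.51, and 0.38 and 0.42 over the 47 genes off chromosome 16. Against the median of the whole chromosome, r was 0.32 and rho 0.27 over all 50, and 0.081 and 0.13 over the 47. These points share both libraries, and some share neighbours, so the values only describe the set. Genes far from their neighbours were Pole2 (1.14 above), Rrm2 (0.64 above), Fen1 (0.47 above), Ccne2 (0.44 above) and Orc1 (0.43 above), with E2f2 at -0.82 and Pold2 at -0.41 relative to them, all on the log2 scale. Between the log2 ratio and the mean level, r was -0.19 and rho -0.20.

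**Figure D4:**
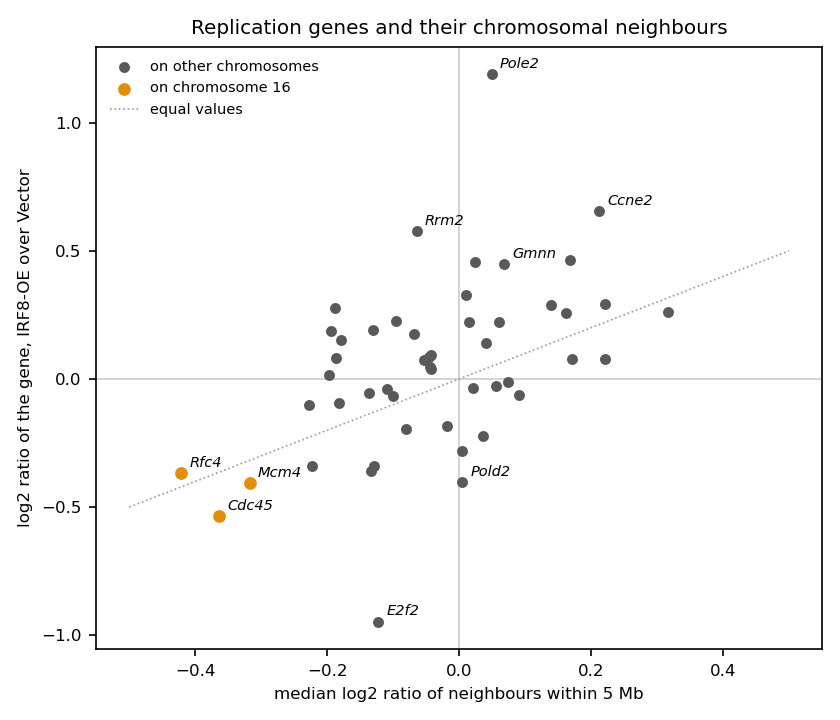
Log2 ratio of each replication gene (IRF8-OE over Vector) against the median log2 ratio of the measured protein-coding genes within 5 Mb. The 3 genes of chromosome 16, in orange, lie at the lower left near the dotted line of equal values, while Pole2, Rrm2 and E2f2 lie away from it.

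Genes of the same pathway outside the set were counted by the same rule. Of 94 measured genes in 5 further lists (fork and firing factors, kinases and checkpoint, the E2F and RB network, replication-coupled chromatin, and nucleotide supply), 1 was called higher, beside 4.27% of all measured genes, and 1 lower, beside 3.64%. The higher one was Dna2, a nuclease and helicase that processes flaps, with 469 counts in IRF8-OE and 192 in Vector, a ratio of 2.03 (1.71 to 2.41). The lower one was Recql4, a helicase of the RecQ family that acts in replication initiation, with 423 counts in IRF8-OE and 832 in Vector, 2.37-fold lower (2.10 to 2.67). Recql4 lies on chromosome 15, whose median log2 ratio of -0.31 was the second lowest. The median log2 ratio was 0.06 for the fork and firing factors, 0.12 for kinases and checkpoint, 0.13 for the E2F and RB network, 0.10 for replication-coupled chromatin and 0.01 for further nucleotide supply genes. The last list had a summed ratio of 0.899 (0.887 to 0.912), in contrast to the 1.27 of Rrm1, Rrm2, Tyms and Tk1. From the E2F and RB list, Ccnd2 and Cdkn1c had 0 counts in both libraries.

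Mitotic genes, most of which peak after replication, were compared as the most alike set. Of 25 measured, 2 were called higher, beside 4.27% of all measured genes, and 0 lower, beside 3.64%. The 2 were the kinetochore genes Cenpf at 2.38-fold (2.13 to 2.67) and Cenpe at 2.18-fold (1.99 to 2.39). Mki67, of the same list, had a ratio of 1.96 (1.88 to 2.05), just short of the size rule. The interval lay above 1 for 19 of 25 mitotic genes and 19 of 50 replication genes, beside 31.1% of all measured genes. The median log2 ratio was 0.23 for mitotic genes and 0.08 for replication genes. The difference between the lists was not tested, because each line had 1 library.

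**Figure D5:**
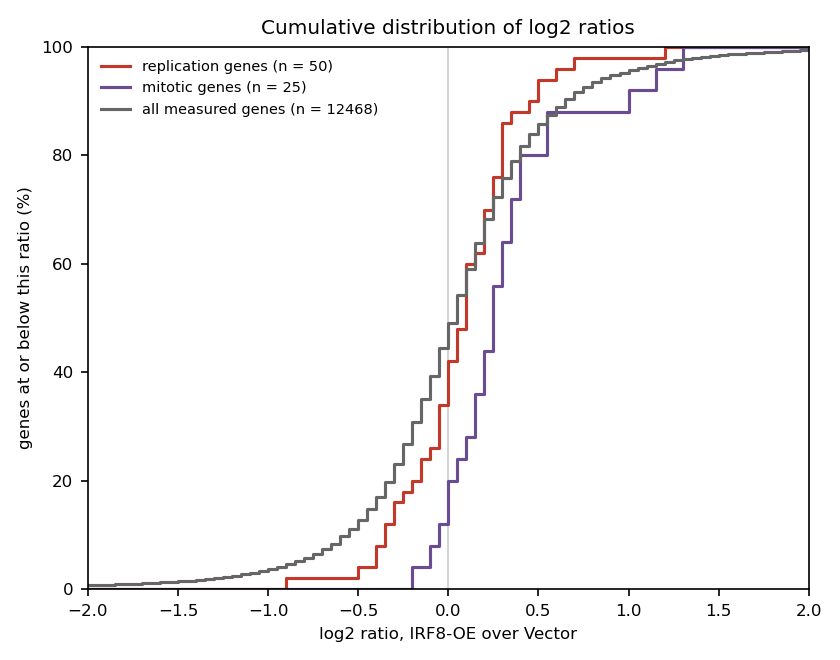
Cumulative percentage of genes at or below each log2 ratio (IRF8-OE over Vector) for the 50 replication genes, 25 mitotic genes and 12468 measured genes. The curve of the replication genes is steeper than that of all measured genes, with 35 of 50 within 1.25-fold of equal levels, and the mitotic curve lies to the right of it.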

How the data were processed

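RNA-seq counts came from 1 library each of the IRF8-OE and Vector lines. The table as deposited gives raw counts of reads for each gene, and gene length in bases as a column of another unit. The authors used HISAT2 2.0.5, featureCounts 1.5.0-p3 and build mm10, per the submitters' processing notes. Strand setting, annotation release and treatment of multiply matching reads: not given in the sources used here.

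Library sizes were scaled with TMM factors (1.04 for IRF8-OE, 0.958 for Vector) of edgeR 4.0.16 in R 4.3.3. Ratios carry exact Clopper-Pearson intervals and levels exact Poisson intervals, which treat each read as an independent molecule. No test across genes was possible with 1 library per group. Other steps used Python 3.11.15, scipy 1.17.1 and statsmodels 0.14.6. GENCODE M21 gave transcript lengths, overlaps and shared 32-base words, and 49 of 50 spans equalled the deposited ones. Exons of 18 of the 50 genes overlapped exons of another gene, and 27 genes shared under 5% of their words with other loci. Not every affected gene is marked above. The genes and lists were chosen with earlier results of these data known. Full values are given for genes past the size rule, the 10 highest and 10 lowest of at least 5 CPM by the interval bound nearest to 1, and 16 textbook genes. Alternatives were other scalings (including DESeq2 1.42.0), filters, fold thresholds, intervals and removed trends.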

Additional observations from a re-analysis of the deposited data

How the results depend on the processing

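The call of Pole2 held in the 9 settings that gave its ratio again, which ran between 2.00 and 2.48. The count of replication genes called higher was 2 at a 1.5-fold threshold, 0 at 4-fold and 19 with no fold threshold, and the count called lower was 1 at 1.5-fold, 14 with no fold threshold and 1 with the expression trend removed. Scaling by total counts moved the median log2 ratio of all measured genes to 0.13 and that of the replication genes to 0.20, with 31 intervals above 1, since another scale shifts every log2 ratio by the same amount. That scaling gave medians of 0.095 for helicase genes, 0.20 for clamp, loader and RPA genes and 0.40 for nucleotide supply, an Irf8 ratio of 1.33 and a summed ratio of 1.09. The summed ratio was 1.01 with upper-quartile factors and 1.02 for protein-coding genes alone. With the expression trend removed, helicase genes had 0.10 and nucleotide supply 0.38, and with chromosome medians removed, origin genes had -0.19 and polymerase genes 0.21. Over all measured genes, 873 were called higher and 800 lower with no expression filter, 221 and 266 at 5 CPM, 1302 and 1175 at 1.5-fold, 69 and 91 at 4-fold, 3883 and 4071 with no fold threshold and 275 and 300 on log2(CPM + 1). A change of scale moves all log2 ratios together, and a filter or threshold changes which genes can be called. The cause of the other shifts was not tested. Chosen after seeing the data were the principal transcript length, the removal of neighbours' medians and the set without chromosome 16, whose median was 0.08. No paired analysis was possible because each group had 1 library. Counting alone left 17 of the 50 intervals including 1, and variation between cultures was not measured.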
